A study of Mus musculus with 12 samples.

Results

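The DLX and MSX homeobox genes were followed in xenograft tumors of SVR, a mouse angiosarcoma cell line, after inhibition of MEK, of the VEGF receptors, or of both. The 8 genes Dlx1, Dlx2, Dlx3, Dlx4, Dlx5, Dlx6, Msx1 and Msx2 were taken by name from a table of 54232 genes. They were chosen by the CPM of Dlx3 in trametinib treated against control tumors, where it changed, so the values of these groups are given below as a description without a test. Of the 8 genes, 5 were among the 12897 genes that passed a filter on low counts, and Dlx4, Dlx5 and Dlx6 did not.

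The 12 tumors came from nude mice and fell into 4 groups of 3. SVR is a single line of endothelial origin that carries an activated Ras gene, and the labels give C57BL/6 as the strain. Tumors grew for 3 to 7 days before daily gavage began with vehicle (control), 1 mg/kg trametinib, 3 mg/kg cediranib, or both drugs at these doses (combination). Trametinib blocks MEK, the kinase that activates ERK, and cediranib blocks the VEGF receptors. The labels give ulceration or a size over 1 cm as the end of dosing. Whether these tumors were instead taken at 1 fixed time is not stated, so time on treatment may differ between groups. RNA of the whole tumor was enriched with exome probes before sequencing. Tumor cells, stroma and overlying skin are all of mouse origin, and their transcripts cannot be told apart. In such bulk tissue, fewer cells of a type and less RNA per cell cannot be told apart either.

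DLX and MSX proteins are transcription factors with closely related homeodomains that recognize DNA with a TAAT core. DLX proteins mostly activate transcription and MSX proteins mostly repress it, and members of both families can bind each other. The genes act in the face, limb, forebrain, placenta, bone, teeth and skin, and several of them respond to BMP signaling. Dlx3 is known for its roles in placenta, epidermal differentiation, hair follicles and mineralized tissue. Msx2 acts in the skull, in teeth and in the hair follicle, and Msx1 in the palate and teeth. Dlx1 and Dlx2 are best known from interneurons of the forebrain, and Dlx5 and Dlx6 from the jaw, limb and bone.

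The DLX genes lie in the genome as neighbors that face each other tail to tail. On the GRCm38 build, Dlx3 (ENSMUSG00000001510) occupies chr11:95120119-95125296 on the plus strand, and Dlx4 lies 15150 bp further along at chr11:95140447-95145801 on the minus strand. Dlx1 (chr2:71528113-71533980, plus strand) and Dlx2 (chr2:71543408-71546754, minus strand) are 9427 bp apart. Dlx6 (chr6:6863334-6867970, plus strand) and Dlx5 (chr6:6877805-6882068, minus strand) are 9834 bp apart. Msx1 (chr5:37820485-37824583) and Msx2 (chr13:53466884-53473074) stand alone on the minus strand. Antisense genes overlap Dlx1 (Dlx1as), Dlx4 (Dlx4os) and Dlx6 (Dlx6os1 and Dlx6os2). The sources used here do not say whether strand was used in counting, so reads of these partners cannot be told apart. The antisense genes had 0 to 4 counts in any tumor. No annotated gene overlaps Dlx3, Dlx2, Dlx5, Msx1 or Msx2.

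RefSeq promoter sequences on GRCm38.p6, from 250 bases before to 50 bases after the start of the gene, covered Dlx1, Dlx2, Msx1 and Msx2. The letters TAATTA, a site that homeodomains of this kind bind and that reads the same on both strands, occurred in the window of Msx2 alone among these 4 genes, and in 5.29% of 32851 promoters. The stretch of Msx2 that holds them is shown as an example of the site. It lies at chr13:53472950-53472979 on the minus strand, with TAATTA in capitals starting 187 bases before the RefSeq start, inside the longer first exon of GENCODE M21. The promoter of Msx1 at chr5:37824586-37824835, also on the minus strand, is shown as an example without TAATTA, which Dlx1 and Dlx2 lacked too. A link between TAATTA and the levels of these genes was not tested.
Msx2: tgactgctcctgTAATTAactcctaattta
Msx1: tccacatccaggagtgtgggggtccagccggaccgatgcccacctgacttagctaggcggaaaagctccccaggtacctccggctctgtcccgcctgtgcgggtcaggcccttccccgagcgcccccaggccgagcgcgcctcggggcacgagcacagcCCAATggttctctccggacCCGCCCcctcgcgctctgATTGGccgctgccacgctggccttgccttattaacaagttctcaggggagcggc
In the Msx1 sequence the capitals mark matches to CCAAT and to GGGCGG on either strand. The GC box was found in the windows of all 4 genes and in 35.7% of all promoters. The CCAAT box was found in the windows of Dlx2, Msx1 and Msx2 and in 37.4% of all promoters. The ETS-type letters CCGGAA (14.9% of promoters) and the AP-1-type letters TGANTCA (7.81%) were in none of the 4 windows. The GC content of the windows was 69.3% for Dlx1, 66.3% for Dlx2, 70% for Msx1 and 61% for Msx2. These matches describe letters in the sequence, and binding was not measured.

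The libraries held 9478865 to 11666094 counts, and levels are given as CPM, counts scaled to a common library size with TMM factors. A count of 3, the limit that a count of 0 allows, corresponded to 0.251 to 0.349 CPM. This limit and the intervals of shares cover counting error only. The labels do not say how the mice of a group were related, and the p-values measure the spread between these tumors. Both trametinib-containing groups showed lower transcripts of MEK signaling: Dusp6, an ERK phosphatase, lay at 39.0 to 47.7 CPM in control, 1.98 to 4.54 in trametinib, 41.4 to 43.6 in cediranib and 10.2 to 13.9 in combination treated tumors. Etv4, an ERK-dependent transcription factor, was also lowest in trametinib and next lowest in combination tumors. Its levels were 78.7 to 89.3 in control, 8.26 to 14.7 in trametinib, 71.8 to 116 in cediranib and 25.7 to 36.5 CPM in combination tumors. All 15 endothelial markers had a count in each control tumor, with 257 to 529 CPM in sum, and 13 to 15 of them had one in the other tumors. Their sum was 118 to 179 CPM in trametinib, 159 to 410 in cediranib and 80.9 to 145 in combination tumors, so it was below all controls in both groups in which Dlx3 was high. Skin content varied strongly within groups. Keratinocyte keratins summed to 778, 11.6 and 5.25 CPM in the control tumors and to at most 7.63 CPM in the trametinib tumors. They summed to 5255, 6.62 and 2745 CPM in the cediranib tumors and to 4331, 6845 and 4837 CPM in the combination tumors.

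Dlx3 was the member with the highest levels in the tumors that received trametinib. Control tumors had 4.0, 2.84 and 1.31 CPM (47, 28 and 13 counts). Trametinib treated tumors had 29.5, 32.7 and 28.8 CPM (325, 281 and 344 counts). All 3 trametinib tumors lay above all 3 controls, and they lay close to each other. The group means were 2.72 ± 1.35 CPM (SD, n = 3) for control and 30.3 ± 2.08 CPM (SD, n = 3) for trametinib, a fitted log2 difference of 3.46 (SE 0.52), or 11.01-fold. This is the contrast by which the genes were chosen. Genes were called at a false discovery rate (FDR) of 0.05 where the log2 fold change was 1.5 or more in size. In this contrast 2.4% of all genes tested were called, and 25.8% had groups that did not overlap.

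Cediranib treated tumors had 3.00, 2.36 and 10.5 CPM of Dlx3 (30, 25 and 110 counts), and combination treated tumors 29.1, 42.9 and 28.0 CPM (288, 472 and 302 counts). The third cediranib tumor stood above all controls, while the others lay within the control range. All 3 combination tumors lay above all 3 cediranib tumors. The means were 5.30 ± 4.54 and 33.3 ± 8.27 CPM (SD, n = 3 each).

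**Figure D1:**
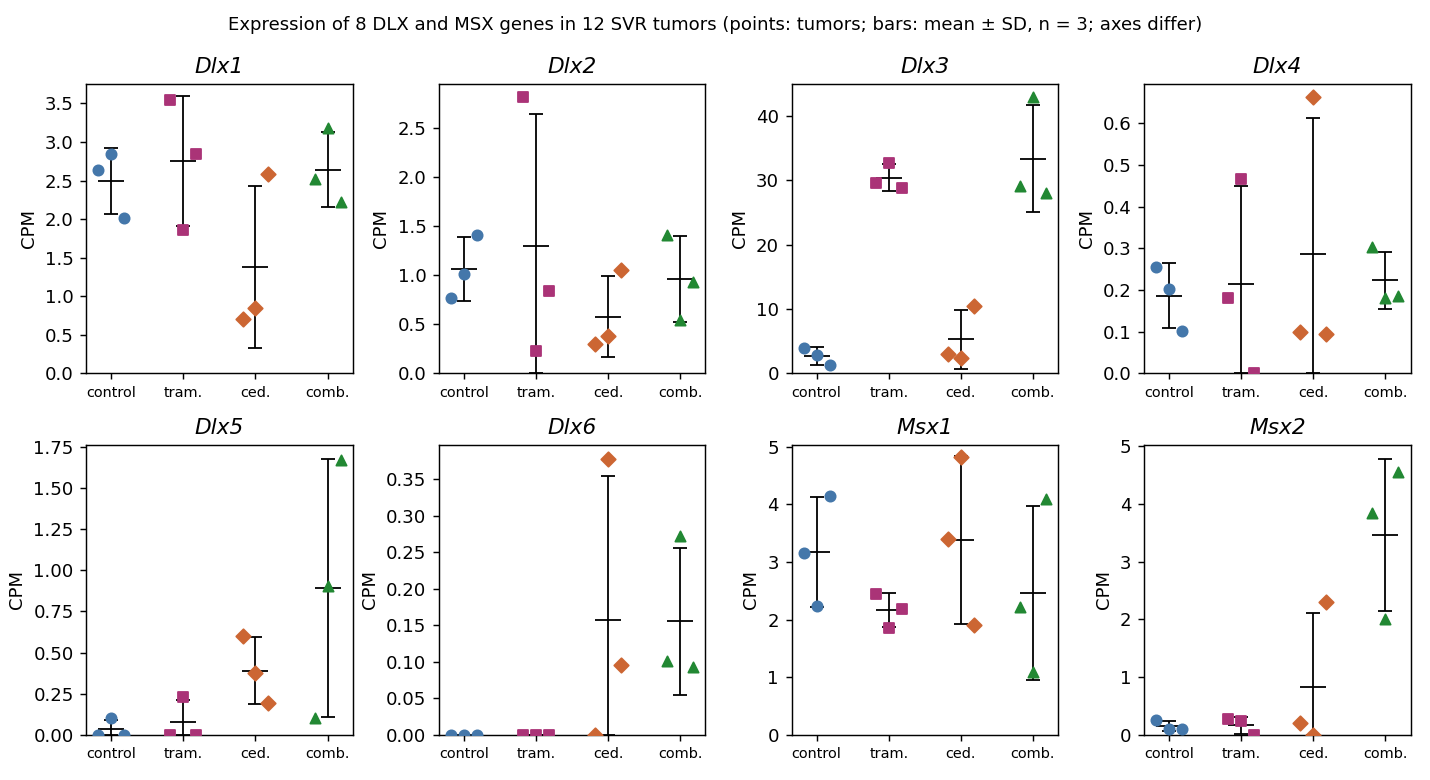
Each panel plots the normalized level of 1 gene in CPM (vertical axis from 0, scales differ between panels) for the 4 treatment groups, with a point for each tumor and bars for the mean ± SD (n = 3, lower bars end at 0). Dlx3 lay between 28.0 and 42.9 CPM in the 6 tumors given trametinib alone or with cediranib and at or below 10.5 CPM in the other 6, and Msx2 lay between 2.00 and 4.55 CPM in the combination tumors.

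The comparison of combination with cediranib treated tumors shares no library with the contrast that chose the genes, and it asks what trametinib adds on top of cediranib. The genes were chosen with earlier results of these data known, so this test is not independent of that choice. Dlx3 was 6.28-fold higher in combination tumors (log2 fold change 2.65, SE 0.49, 95% interval 1.58 to 3.72, edgeR FDR 0.00888). It was the only member called, and 2.45% of all genes tested were called. It was also the only tested member whose groups did not overlap, where 28.4% of all genes tested had such groups. Dlx3 was called under all 14 alternative settings, with log2 fold changes of 2.04 to 3.64 and edgeR or DESeq2 FDRs of at most 0.0419. One of them added an epidermal score, the mean log2 CPM of 22 epidermal genes other than keratins, to the model, and gave 2.04 (SE 0.45, edgeR FDR 0.033). The score of every combination tumor lay above that of every cediranib tumor, so this model does not fully separate score and group.

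The same comparison left the other tested members uncalled. Dlx1 had a log2 fold change of 0.93 (95% interval -0.06 to 1.92, edgeR FDR 0.246), and Dlx2 one of 0.72 (-0.99 to 2.42, edgeR FDR 0.632). Msx1 had -0.45 (-1.45 to 0.54, edgeR FDR 0.599). Msx2 had 2.04 (SE 0.94). The third cediranib tumor decided whether Dlx1 was called: without it, Dlx1 was called at 1.76 (edgeR FDR 0.0325). The fitted difference of Msx2 was 5.00 without that tumor, which leaves it with 10 or more counts in combination tumors alone, and is given as a description.

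**Figure D2:**
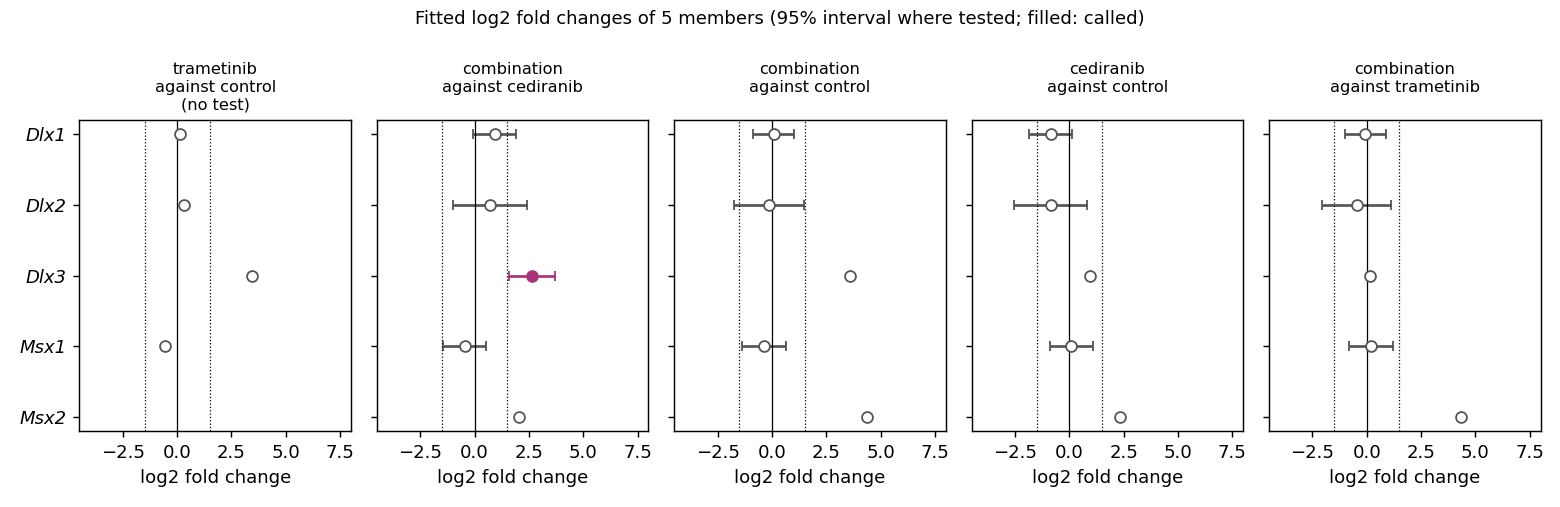
Points give fitted log2 fold changes (horizontal axis) of the 5 tested members in 5 comparisons, with 95% intervals where a test is given, dotted lines at an absolute value of 1.5, and a filled point for a called gene. Points without an interval are descriptions: all of trametinib against control, Msx2 throughout, and Dlx3 outside combination against cediranib. Msx2 has no point in trametinib against control, where it had at most 3 counts in each tumor. Dlx3 was called in combination against cediranib (2.65).

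Every other comparison of Dlx3 reuses control or trametinib tumors of the contrast that chose the genes, so its values are given without a test. Combination tumors had 12.1-fold more Dlx3 than controls (log2 fold change 3.60, SE 0.52), and the groups did not overlap. In combination against control 3.61% of all genes tested were called, and 31.3% had groups that did not overlap. Adding the epidermal score, which did not overlap between these groups either, brought the difference of Dlx3 to 2.12 (SE 0.64). Cediranib tumors differed from controls by 0.95 (SE 0.52), and by -0.04 without the third cediranib tumor. Combination tumors differed from trametinib tumors by 0.14 (SE 0.45), and these groups overlapped.

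Dlx3 and the keratins ran in the same order in the control tumors but not in the other groups. In the control tumors both fell in the same order, with 778, 11.6 and 5.25 CPM of keratins, and in the combination group the tumor with the most keratins (6845 CPM) had the most Dlx3 (42.9 CPM). Trametinib tumors, with 28.8 to 32.7 CPM of Dlx3, had 1.42 to 7.63 CPM of keratinocyte keratins in sum. In these 3 tumors Trp63, the transcription factor that marks basal epidermis, had 0, 9 and 2 counts, and Krt14, a basal keratin, 0.335 to 2.09 CPM. The first cediranib tumor had 5255 CPM of keratins, more than 2 of the 3 combination tumors, and 3.00 CPM of Dlx3. The third cediranib tumor, with 10.5 CPM of Dlx3, was the only tumor outside the combination group with hair transcripts at a high level, 832 CPM over a list of 19 hair matrix and shaft genes against at most 7.27 CPM in the other 8. The combination tumors were high in Dlx3, keratins and hair genes alike, although the tumor with the most Dlx3 had the least hair transcripts of the 3 (246 CPM). The part of skin in the level of Dlx3 was not tested beyond the model with the epidermal score.

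**Figure D3:**
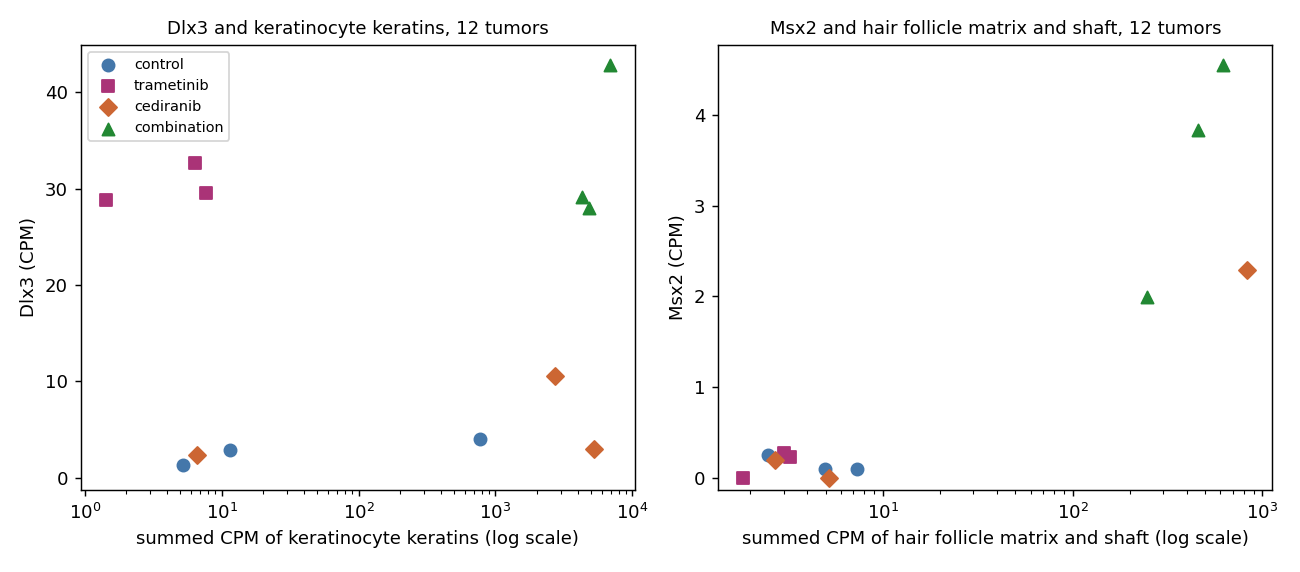
The panels set the CPM of Dlx3 and of Msx2 in each of the 12 tumors (vertical axes) against the summed CPM of skin genes (horizontal axes, log scale), with a symbol for each treatment. The trametinib tumors combine 28.8 to 32.7 CPM of Dlx3 with at most 7.63 CPM of keratins, and Msx2 reached 2.00 CPM or more only in the 4 tumors with 246 CPM or more of hair genes.

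Msx2 was low in control and trametinib tumors and higher in the combination group. Control tumors had 0.255, 0.101 and 0.101 CPM (3, 1 and 1 counts) and trametinib tumors 0.272, 0.233 and 0 CPM (3, 2 and 0 counts). These levels do not exceed what a count of 0 allows, and no fold is given between these groups. Cediranib tumors had 0.200, 0 and 2.30 CPM (2, 0 and 24 counts), and combination tumors 3.84, 2.00 and 4.55 CPM (38, 22 and 49 counts). Msx2 thus passed the filter only through the 3 combination tumors and the third cediranib tumor, the 4 libraries in which it had 10 or more counts. The combination tumors lay above all control and trametinib tumors and overlapped with the cediranib group through that tumor.

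Because Msx2 entered the fit only through tumors in which it was high, it had to differ, and its fitted differences are given as a description. Against control the difference of the combination tumors was 4.36 (SE 1.15) and rested on 5 control counts in all, and it was 0.66 after the epidermal score was added. Against trametinib it was 4.33 (SE 1.15), again on 5 counts. Cediranib tumors differed from control by 2.32 (SE 1.22), and by -0.63 without the third tumor. In combination against trametinib edgeR's quasi-likelihood test called 0 of the members, and 0.675% of all genes tested. DESeq2 and edgeR's likelihood ratio test each called 1 member there, Msx2, which was also the 1 member with an unadjusted p under 0.05, as were 17.9% of all genes tested. These tests called 347 and 401 of all 12897 genes. Msx2 was the only member in the fit whose groups did not overlap there, where 24.2% of all genes tested did not.

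All 19 hair matrix and shaft genes measured had a count in each of the 4 tumors in which Msx2 reached 2.00 CPM. They summed to 459, 246 and 622 CPM in the combination tumors and 832 CPM in the third cediranib tumor. The first cediranib tumor had 5255 CPM of keratinocyte keratins but 2.7 CPM of hair genes, and 0.200 CPM of Msx2. The part of hair follicle tissue in the level of Msx2 was not tested.

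Msx1 showed no difference that passed the test. Control tumors had 3.15, 2.23 and 4.14 CPM, trametinib tumors 2.45, 1.86 and 2.18 CPM, cediranib tumors 3.40, 4.82 and 1.91 CPM and combination tumors 2.22, 1.09 and 4.08 CPM. All 4 groups overlapped. The log2 fold change was -0.36 for combination against control (95% interval -1.36 to 0.63), 0.09 for cediranib against control (-0.89 to 1.07) and 0.18 for combination against trametinib (-0.83 to 1.2). With that of combination against cediranib (-1.45 to 0.54), the intervals reach at least 0.54 above and 0.83 below no change. The difference of trametinib from control was -0.55 (SE 0.46), as a description.

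Dlx1 and Dlx2, which share their locus, were low in the first 2 cediranib tumors, where Dlx1 had its lowest values of all 12 tumors. Dlx1 had 2.64, 2.84 and 2.02 CPM in control, 3.54, 1.86 and 2.85 in trametinib, 0.699, 0.851 and 2.58 in cediranib and 2.52, 3.18 and 2.23 in combination tumors. Dlx2 had 0.766, 1.01 and 1.41 CPM in control, 2.81, 0.233 and 0.837 in trametinib, 0.3, 0.378 and 1.05 in cediranib and 1.41, 0.545 and 0.928 in combination tumors. The groups of both genes overlapped in every comparison. In cediranib against control, Dlx1 had -0.85 (SE 0.46, 95% interval -1.84 to 0.14) and Dlx2 -0.86 (SE 0.78, -2.56 to 0.84), with edgeR FDRs of 0.999. In this comparison 0 of 5 tested members were called, 0 had an unadjusted p under 0.05 where 4.32% of all genes tested did, and DESeq2 and edgeR's likelihood ratio test called 0. Of all genes tested 0% were called and 7.76% had groups that did not overlap, against 0 of the tested members.

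Combination against control gave 0.08 for Dlx1 (95% interval -0.87 to 1.03) and -0.15 for Dlx2 (-1.76 to 1.47). Combination against trametinib gave -0.06 for Dlx1 (-1.01 to 0.88) and -0.45 for Dlx2 (-2.04 to 1.14). Trametinib against control, as a description, gave 0.14 (SE 0.44) and 0.31 (SE 0.73), and both signs turned when single tumors were left out. Dlx2 had 124 counts in all 12 libraries together, and its intervals are the widest of the 4 members that had a count in every tumor.

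Dlx4, Dlx5 and Dlx6 had 28, 44 and 10 counts over all 12 libraries. Dlx4, the partner of Dlx3 in its locus, had 3, 2 and 1 counts in control, 2, 4 and 0 in trametinib, 1, 7 and 1 in cediranib and 3, 2 and 2 in combination tumors, without the pattern of Dlx3. Dlx5 had 0, 1 and 0 counts in control, 0, 2 and 0 in trametinib, 6, 4 and 2 in cediranib and 1, 10 and 18 in combination tumors. The cediranib tumors lay above the controls, and the combination tumors ranged from the level of the controls to the highest counts of all. Dlx6 had 0 counts in all control and trametinib tumors, 0, 4 and 1 in cediranib and 1, 3 and 1 in combination tumors. Most of these values are at or near the limit that a count of 0 allows. When the first combination tumor was left out, Dlx5 passed the filter through the other combination tumors and was called in combination against control. A model without the filter called Dlx5 in combination against control (29 against 1 counts) and against trametinib (29 against 2 counts). All these calls rest on the 2 tumors in which Dlx5 had 10 or more counts, and they are no support.

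Levels of different genes were set side by side per kilobase of gene length, which corrects for length but not for capture by the exome probes. Control tumors had 1.04 ± 0.517 CPM per kb of Dlx3 and 1.02 ± 0.309 of Msx1 (SD, n = 3 each). The groups of values overlapped, so neither gene led the family in control. Dlx1 (0.463) and Dlx2 (0.373) followed and overlapped with each other, and Dlx4, Msx2, Dlx5 and Dlx6 lay at 0.0570 CPM per kb or less. In trametinib tumors Dlx3 reached 11.6 ± 0.798 CPM per kb, without overlap with Msx1, the next at 0.699, and the remaining neighbors in the order overlapped. In cediranib tumors Dlx3 (2.03) and Msx1 (1.09) overlapped, and Msx1 lay above Dlx1 (0.255) without overlap. In combination tumors Dlx3 (12.8 ± 3.17) again led without overlap, followed by Msx2 (1.06), Msx1 (0.796), Dlx1 (0.490), Dlx5 (0.395) and Dlx2 (0.337), each of which overlapped with the next.

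Dlx3 supplied a changing share of all counts of the 8 genes. In control tumors it was 14.4% (Wilson 95% interval 8.64 to 23.2) to 36.2% (28.4 to 44.7), and in cediranib tumors 24.0% to 56.1%. In trametinib tumors it was 76.1% to 87.0%, and in combination tumors 67.1% to 84.0%. All tumors given trametinib, alone or combined, lay above those without it. This largely restates the levels of Dlx3, by which the genes were chosen, and is no separate result.

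Of the nearest tested genes beside the DLX and MSX loci, 1 of 10 was called in combination against cediranib or in trametinib against control. The nearest tested genes on either side of Dlx3 and Dlx4 were Itga3, an integrin subunit 43318 bp away from Dlx3, and Kat7, a histone acetyltransferase 148963 bp away. In combination against cediranib, Itga3 had a log2 fold change of -0.16 (SE 0.17) and Kat7 one of 0.00 (SE 0.13), and in trametinib against control -0.88 (SE 0.17) and 0.13 (SE 0.13). Neither was called in these comparisons. Beside Dlx1 and Dlx2, Itga6, an integrin subunit, fell by 2.45 on the log2 scale in combination against cediranib (SE 0.21, edgeR FDR 0.000202) and by 3.25 in trametinib against control (SE 0.22, edgeR FDR 1.62e-05). On the other side of Dlx1, Metap1d had 0.90 and 0.16 and was not called. Sem1 and Asns beside Dlx5 and Dlx6, Evc2 and Stx18 beside Msx1, and Sptlc1 and Sfxn1 beside Msx2 were not called in either comparison.

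The tested genes whose centred log2 CPM came closest to that of Dlx3 over the 12 tumors were Sybu, Pcdh19, Hopxos, Lgr4 and Hopx. Their root mean square differences from Dlx3 were 0.462, 0.482, 0.686, 0.688 and 0.689, where Dlx3 itself varied by 1.72 around its mean. Pcdh19, a protocadherin of cell adhesion, had 42.2 to 53.6 CPM in control, 418 to 589 in trametinib, 45.5, 48.2 and 111 in cediranib and 404 to 499 in combination tumors. Its highest cediranib value was that of the third tumor, as for Dlx3. Sybu, which links cargo to kinesin, had 0 to 0.203, 2.68 to 4.18, 0.200 to 1.15 and 3.84 to 5.63 CPM. Lgr4, a receptor for R-spondins, had 10.2 to 15.4, 84.0 to 88.9, 6.62 to 18.6 and 47.8 to 77.7 CPM. Hopx, a small homeodomain protein that does not bind DNA, had 1.01 to 3.24, 11.98 to 28.0, 3.73 to 5.10 and 15.8 to 28.5 CPM. Hopx and Hopxos had nearly the same values in every tumor, and reads of the pair may be shared. With another prior count on the log scale 4 of these 5 genes were again the closest.

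**Figure D4:**
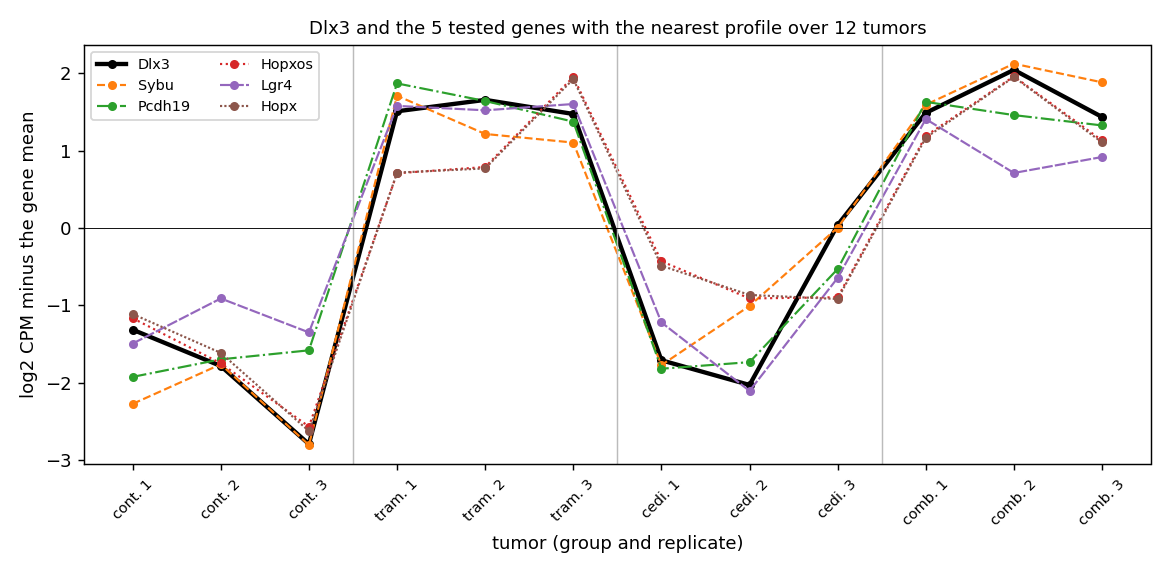
Lines connect the centred log2 CPM (vertical axis) of Dlx3 and of the 5 genes closest to it over the 12 tumors, ordered by treatment and replicate (horizontal axis). All 6 genes lie above 0 in the 6 tumors given trametinib alone or with cediranib, and at 0.04 or below in the other 6, with the highest cediranib value of Dlx3, Sybu, Pcdh19 and Lgr4 in the third tumor.

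The genes closest to Msx2 were Krtap8-1, Gm11595 and Dsg4, with differences of 0.460, 0.543 and 0.562 where Msx2 varied by 1.64. Krtap8-1 encodes a keratin-associated protein of the hair shaft and Dsg4 a desmoglein of hair. All 3 genes had 0 CPM in control and trametinib tumors, and 1 of the 3 was again closest with another prior count. Msx1 lay closest to Gm45606, Hic1 and Tmem199 (0.248, 0.302 and 0.305, where Msx1 varied by 0.538). The closest to Dlx1 were Txnl4b, Arhgef3 and Hoxa6, and to Dlx2 1700066B19Rik, Tube1 and Apcdd1, with differences of 0.361 to 0.375 and 0.464 to 0.483 where the genes varied by 0.615 and 0.769.

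Genes of BMP signaling, a pathway upstream of several DLX and MSX genes, mostly did not pass the test. Of 25 genes listed, 20 were tested. In combination against cediranib 1 rose, Grem1, a secreted BMP antagonist, from 4.70 to 22.8 CPM (log2 fold change 2.27, SE 0.43, edgeR FDR 0.00916). The median of the 20 was 0.11, and that of all genes tested 0.00. In trametinib against control 1 fell, Bmp7, a BMP ligand, from 49.7 to 1.88 CPM (log2 fold change -4.67, SE 0.94, edgeR FDR 0.0119), and the median was 0.10 beside 0.01. Without the first or the second trametinib tumor, 0 genes of the list were called there. Of 8 tested partners of DLX and MSX proteins, 0 were called in either comparison by edgeR's quasi-likelihood test, with medians of 0.04 and -0.10. At an unadjusted p under 0.05 there were 5 and 3 of them, beside 23.1% and 20.7% of all genes tested. Of 6 tested osteoblast genes 0 were called in either, 2 and 1 had an unadjusted p under 0.05, and the medians were -0.39 and -0.11. DESeq2 and edgeR's likelihood ratio test called 0 of both lists in these comparisons. In combination against control 1 partner and 1 osteoblast gene were called higher, where 3.61% of all genes tested were called. The partner count ran from 0 to 1 when 1 tumor was left out. In combination against trametinib 1 osteoblast gene was called higher, and 0 when any 1 tumor was left out.

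Among 10 tested homeobox genes of other families, 0 were called in combination against cediranib by any of the 3 tests, with 3 at an unadjusted p under 0.05 (median -0.58). In trametinib against control 1 fell, Hhex, a homeobox gene of early endothelium, from 10.4 to 3.13 CPM (log2 fold change -1.73, SE 0.20, edgeR FDR 0.000468, list median -0.14). Of 13 tested transcription factors of epidermis and hair, 1 rose in combination against cediranib, Klf4, a zinc finger factor of the skin barrier that many other cells also use. It rose from 20.2 to 72.8 CPM (log2 fold change 1.85, SE 0.32, edgeR FDR 0.00646, list median 1.05), and in trametinib against control from 19.7 to 75.4 CPM (1.93, SE 0.32, edgeR FDR 0.004, list median -0.23). The call of Klf4 in combination against cediranib was lost when the epidermal score was added. In combination against control 6 of these 13 factors rose and 0 fell, beside the skin transcripts of the combination tumors and where 3.61% of all genes tested were called. This count ran from 1 to 8 when 1 tumor was left out, with 1 without the second or the third control tumor, 3 without the first combination tumor and 2 without the second or the third, and it was 0 with the epidermal score.

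Markers of other cells were counted in the same way. In combination against cediranib, of 22 tested epidermal genes other than keratins 1 rose, Ppl, a protein of the cornified envelope (2.00, SE 0.50, edgeR FDR 0.0341), and it was no longer called when any 1 of the 6 tumors was left out or the epidermal score was added. In that comparison 0 of 10 keratinocyte keratins, 0 of 17 hair genes, 0 of 9 fibroblast genes, 0 of 10 skeletal muscle genes and 0 of 9 macrophage genes were called, with medians of 1.11, 0.54, 1.01, 1.11 and -0.49. At an unadjusted p under 0.05 there were 0, 0, 5, 0 and 3 of them, beside 23.1% of all genes tested, and DESeq2 called 0, 0, 2, 1 and 0. Without the third cediranib tumor 13 of the hair genes were called. That leaves high hair values in combination tumors alone, so this count is a description and no support. In the same comparison 4 of 12 endothelial genes fell, with Sox18, Pecam1 and Tie1 at -3.22, -2.86 and -2.39, and 10 of 19 genes of MAPK output fell, with Egr1, Dusp4 and Dusp5 at -2.92, -2.68 and -2.38 (edgeR FDRs of 0.000110 to 0.0407). Of all genes tested 2.45% were called there. The endothelial count was 1 to 4 when 1 tumor was left out, with 1 or 2 for each tumor but the third cediranib tumor, 2 with the replicate block and 1 with the epidermal score. In trametinib against control 10 of 19 genes of MAPK output and 4 of 12 endothelial genes fell as well, the latter 1 to 6 when 1 tumor was left out. Of all genes tested 2.4% were called in it. Of the epidermal genes Ivl, a cornified envelope gene with 17.9 CPM in control and 0 in trametinib tumors, was called lower, while the likelihood ratio test called 7, DESeq2 4 and the model without the filter 12 of that list. Fibroblast, muscle, macrophage, keratin and hair genes had 0 called there, with 5, 0, 1, 9 and 0 at an unadjusted p under 0.05 and 1, 0, 0, 5 and 5 called by DESeq2. Of all genes tested 20.7% had an unadjusted p under 0.05. The likelihood ratio test called 0, 0, 0, 7 and 0 of these lists, and the model without the filter 3, 2, 0, 10 and 2. Keratins had fewer counts in the trametinib tumors than in the first control tumor. The part of these cell types in the levels of Dlx3 was not tested.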

How the data were processed

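RNA of 12 SVR tumors, 3 per treatment, had been captured with exome probes and sequenced. Per the submitters' processing notes, the tools were bcl2fastq 1.8.4, STAR 2.7.1a and featureCounts 1.6.0 of Subread, on GRCm38. The annotation release, strand mode and treatment of multimapping reads were not given in the sources used here. The values the authors deposited are raw counts that had not been normalized, together with gene coordinates and a gene length (another unit, in bases), which equaled the union of exons in GENCODE M21 for 97.3% of 54165 matched genes. All columns of counts belonged to 1 of the 12 tumors, and 0 were left unused. Groups were taken from the titles and treatment labels.

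Counts were filtered with filterByExpr (minimum count 10, minimum total 15), scaled with TMM (factors 0.908 to 1.10) and fitted jointly for the 12 libraries with the quasi-likelihood method of edgeR 4.0.16 (R 4.3.3). FDRs are Benjamini-Hochberg values over the 12897 genes tested, and calls required 0.05 and a log2 difference of 1.5 or more in size. Biological variation between tumors of a group was 27.2% (coefficient of variation). Standard errors derive from the F statistic, and 95% intervals use the t quantile of the fit. CPM used TMM-scaled library sizes, and centred log2 CPM a prior count of 2. The script was tested on simulated data. Alternatives were DESeq2 1.42.0, the likelihood ratio test, other scalings, no filter, only the groups compared, a replicate block, an epidermal score and each tumor left out. limma 3.58.1 was loaded by edgeR.

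The 8 genes and the gene lists were chosen with earlier results of these data known. Genes named singly are the members, the nearest tested gene on each side of each locus, the closest genes by centred log2 CPM (5 for Dlx3, 3 for each other tested member), up to 3 called genes per list with the largest change in combination against cediranib and in trametinib against control, and checks of skin, endothelium and MEK inhibition.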

Additional observations from a re-analysis of the deposited data

How the results depend on the processing

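In combination against cediranib, Dlx3 was called under every alternative. The number of members called there was 1, but 2 without the filter (Dlx3, Msx2) and 1 to 3 when 1 tumor was left out, with 3 (Dlx1, Dlx3, Msx2) without the third cediranib tumor. In combination against control, which reuses the control tumors of the contrast that chose the genes, it was 2 (Dlx3, Msx2), but 3 without the filter (Dlx3, Dlx5, Msx2), 0 with the epidermal score and 1 to 2 when 1 tumor was left out, with Dlx3 and Dlx5 called without the first combination tumor. The call of Msx2 was lost whichever of the 6 tumors was left out. In combination against trametinib the number of members called was 0, but 2 without the filter (Dlx5, Msx2) and 1 (Msx2) with the likelihood ratio test, with DESeq2 and with only both groups in the fit. It stayed at 0 in cediranib against control. With a replicate block the counts were 1, 2, 0 and 0 in combination against cediranib, combination against control, cediranib against control and combination against trametinib, so the block changed no count. The replicate numbers did not pair the tumors: deviations of same-numbered tumors correlated with a median of -0.00791 over 18 pairs, and 3 pairs exceeded 0.1.

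With the epidermal score, log2 fold changes reversed to -0.71 for Dlx1 and 0.32 for Msx1 in combination against control, to -0.36 for Msx2 in cediranib against control, and to -2.02 for Dlx3 and -1.25 for Msx2 in combination against trametinib. The score of the combination tumors (3.36 to 3.83) did not overlap with that of any other group. It was -0.59 to -0.08 in trametinib, 0.22 to 1.72 in control and 0.21 to 3.24 in cediranib tumors. Comparisons of the combination group therefore do not fully separate score and group. With library totals alone, Dlx1 in combination against trametinib became 0.053, and medians of all genes moved by up to 0.13. When 1 tumor was left out, signs reversed within ranges of -0.071 to 0.18 (Dlx1), -0.52 to 0.14 (Dlx2) and -0.95 to 0.000583 (Msx1) in combination against control, -0.044 to 1.33 (Dlx3), -0.26 to 0.36 (Msx1) and -0.63 to 2.90 (Msx2) in cediranib against control, and -0.27 to 0.15 (Dlx1), -0.92 to 0.77 (Dlx2), -0.072 to 0.25 (Dlx3) and -0.39 to 0.56 (Msx1) in combination against trametinib. In trametinib against control, Dlx1 ran from -0.077 to 0.35 and Dlx2 from -0.92 to 0.77. Msx2 entered these fits only through tumors in which it was high, as did Dlx5 without the first combination tumor. The calls of both genes, also those without the filter, are no support. The cause was not tested. Members with few counts, Dlx4, Dlx5 and Dlx6 above all, are limited by depth.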
